A study of Mus musculus with 7 samples.

Results

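The cholesterol and fatty acid synthesis genes described here are 36 named genes: the enzymes that make cholesterol from acetyl-CoA, the sterol sensors and transcription factors that control them, the enzymes that make, elongate and desaturate fatty acids, and 2 sterol exporters. They were chosen by name, as entries of the deposited table with a count in any library, and all 36 were found among its 15588 genes. Helper (CD4) T cells were sorted from tumours of mice bearing an orthotopic hepatocellular carcinoma transplant, and their RNA was sequenced. Cells were taken on day 0 (2 libraries) or day 7 (5 libraries) of the transplant model, with no other treatment in the labels. Strain, age, sex, tumour line, animals per library and the tissue that served as tumour on day 0 are not given. Libraries are named by the last digit of their column, and no label ties them to separate animals, so the p-values cover only the spread among these 7 libraries.

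Cells make cholesterol through the mevalonate pathway, which builds isoprenoid units from acetyl-CoA, joins them into squalene and closes and trims the sterol rings. When sterols are scarce, the protein SCAP carries the SREBP transcription factors from the endoplasmic reticulum to the Golgi, where they are cut and released to switch on the genes of sterol and fatty acid synthesis. When sterols are plentiful, the INSIG proteins hold SCAP back, and oxysterols activate LXR receptors, which raise the sterol exporters. In T lymphocytes this programme is known to be raised by antigen receptor signals, because dividing cells need new membrane.

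Total counts ranged from 21910818 to 28333855 per library, and levels are in CPM (counts put on a shared library size by TMM factors). Where a gene's level is given for every library, the order is day 0 libraries 2 and 3, then day 7 libraries 1, 2, 3, 5 and 6. The 8 CD4 T cell markers had counts in every library (summed level 3542 to 4589 CPM). Day 7 libraries 5 and 6 stood apart. Cd8a and Cd8b1, the genes of the CD8 coreceptor, summed to 204 and 175 CPM there and to between 2.32 and 18.2 CPM elsewhere. The 12 macrophage and Kupffer cell markers summed to 258 and 149.8 CPM there and to between 11.1 and 33.6 CPM elsewhere. Much of that sum was Lyz2, at 147 and 67.5 CPM in libraries 5 and 6. Of the 9 tested markers 6 were highest of day 7 in both libraries, while Marco and Vsig4 had no counts there. The 14 hepatocyte markers found in the table, of a cell type that makes much cholesterol and fat, summed to 30.8 and 23.4 CPM on day 0, to 66.0, 63.2 and 58.4 CPM in day 7 libraries 1, 2 and 3 and to 29.9 and 17.8 CPM in libraries 5 and 6, with 4 to 12 of them at 0 in a library. Most of the sum was Trf on day 0 (18.1 and 20.5 CPM) and in day 7 library 6 (17.8 CPM). In day 7 libraries 1, 2 and 3 the largest part was Alb (33.6, 23.3 and 28.4 CPM). The 6 NK cell markers differed between the days in their sum, at 755 and 846 CPM on day 0 and at 517, 453, 449, 275 and 279 CPM on day 7. Most of that sum was Klrb1c, at a mean of 673 CPM on day 0 and 291 CPM on day 7. Of the 6 markers 2 had a negative log2 change and 4 a positive one. A lower level in such bulk libraries may reflect fewer cells that carry a transcript or less of it per cell, which cannot be told apart. The part of these other cells in the values below was not tested, and the log2 change without day 7 libraries 5 and 6 is given for genes in which both were above or both below libraries 1, 2 and 3. For such genes the direction in which the change moves is set by that choice.

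No gene of the set passed the test between day 0 and day 7. Of the 36 genes 35 had enough counts to be tested. With edgeR's quasi-likelihood test 0 were higher and 0 were lower at a Benjamini-Hochberg adjusted p below 0.05, where 1.54% of all 12929 tested genes were called (1.07% higher and 0.472% lower). At an unadjusted p under 0.05, 2 genes were higher, Cyp51 and Hsd17b7, and 0 were lower, against 6.29% and 3.78% of all genes. DESeq2 called these 2 genes higher and 0 lower, but it also called more genes in all, 634 higher and 192 lower of the 12929 tested. Limma-voom, with or without sample weights, called 0 of the set. Changes lay on both sides of zero, 18 positive and 17 negative, and their median log2 change was 0.0053. By comparison, 53.1% of all tested genes had a positive change and their median was 0.041. The mean level of the 36 genes, as log2(CPM + 1), was 4.88 and 4.67 on day 0. It ran from 4.54 to 4.93 over the day 7 libraries, so the groups overlapped. In the same libraries 9 of 12 cell cycle genes rose, none fell, and their median log2 change was 1.94. The cell cycle list was chosen with earlier results of these data known.

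**Figure D1:**
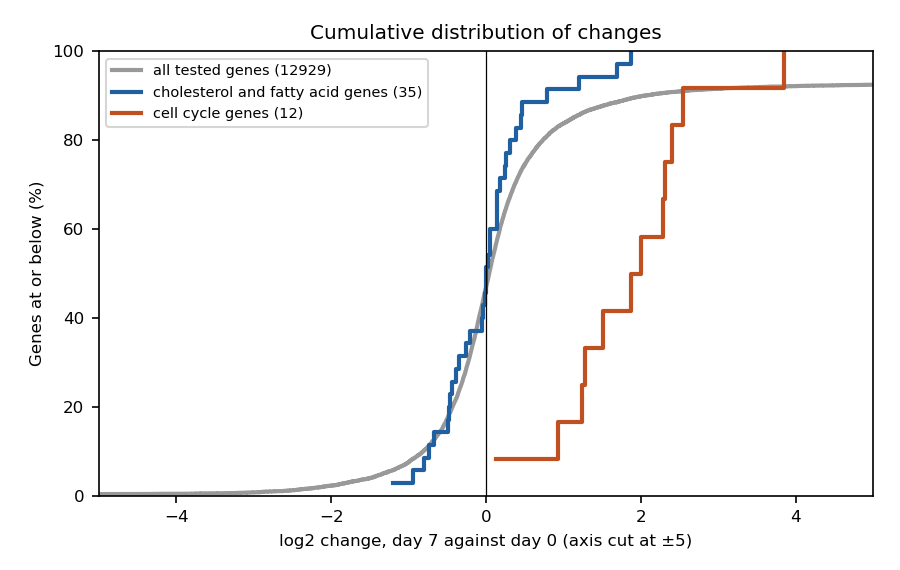
Cumulative share of genes (y axis, percent) at or below a log2 change of day 7 against day 0 (x axis) for all tested genes, the cholesterol and fatty acid genes and the cell cycle genes. The median is 0.0053 for the cholesterol and fatty acid genes, 0.041 for all tested genes and 1.94 for the cell cycle genes, a list chosen with earlier results of these data known.

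**Figure D2:**
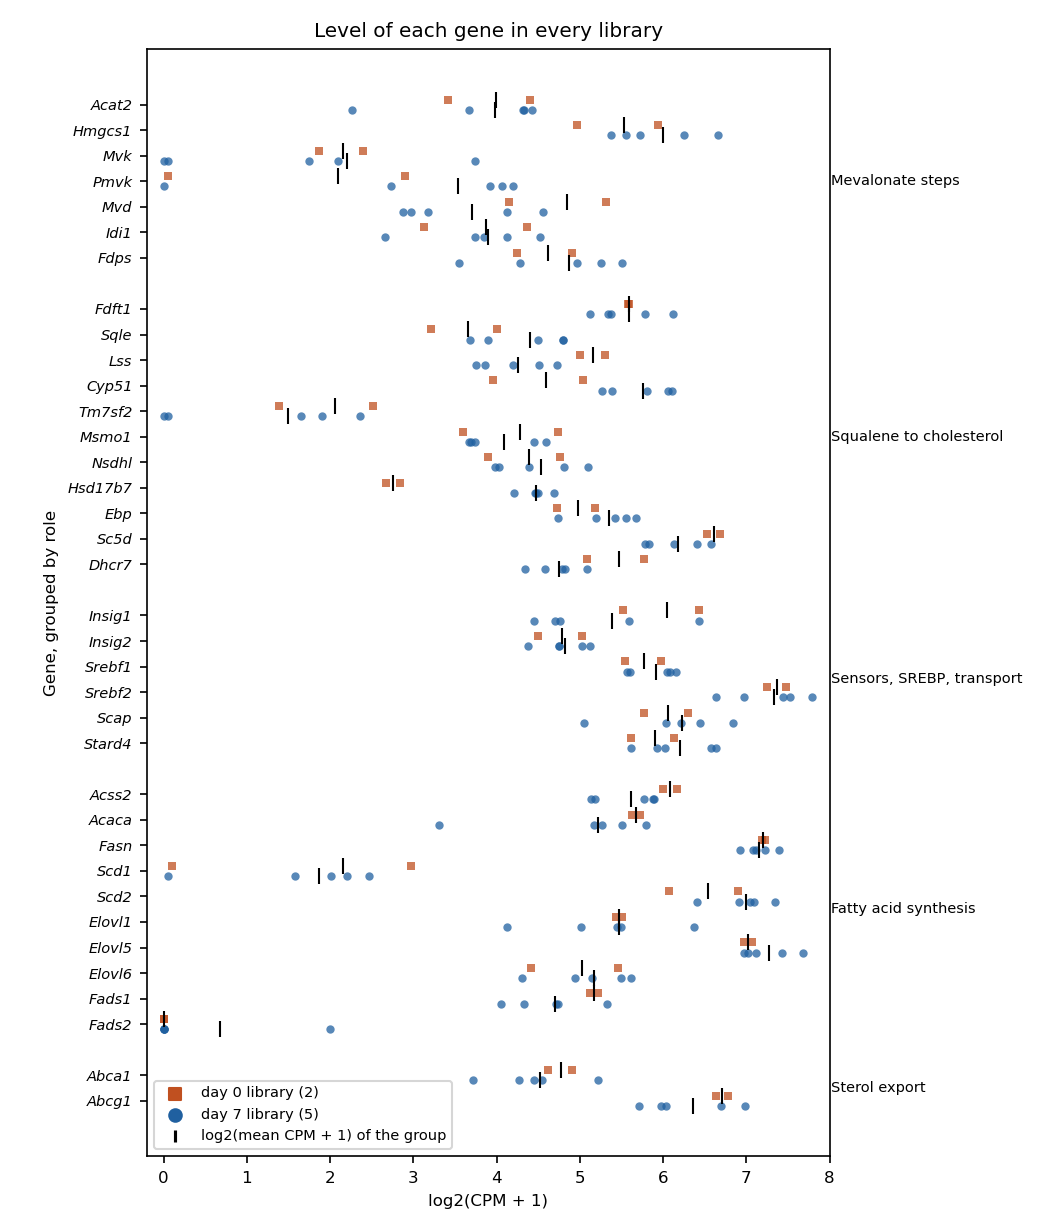
Level of each of the 36 genes as log2(CPM + 1) (x axis) in the 2 day 0 libraries (squares) and the 5 day 7 libraries (circles), with a tick at the level of the group's mean CPM. The groups of most genes overlap; Cyp51 and Hsd17b7 lie higher in all 5 day 7 libraries, and Lss, Dhcr7 and Acss2 lower.

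In 2 genes every day 7 library lay above both day 0 libraries (Cyp51 and Hsd17b7), as did 7.53% of all tested genes, and in 3 every day 7 library lay below (Lss, Dhcr7 and Acss2), as did 7.74%. With 35 genes tested, these counts are near the shares among all genes. Cyp51 (Entrez 13121), which encodes the demethylase that removes a methyl group from lanosterol, stood at 31.8 and 14.5 CPM on day 0 and at 37.6, 65.7, 67.8, 40.7 and 54.9 CPM on day 7. Its lowest day 7 value was above the higher day 0 value by a small margin, and it was not called (log2 change 1.20 ± 0.40 SE, adjusted p = 0.173 with edgeR). Hsd17b7 (Entrez 15490), a reductase of the complex that then removes further methyl groups, stood at 6.15 and 5.39 CPM on day 0 and at 21.5, 24.8, 17.5, 21.1 and 21.1 CPM on day 7. All day 7 libraries were at least 17.5 CPM and both day 0 libraries were at most 6.15 CPM, a ratio of the group means of 3.67, but the change was not called (log2 change 1.88 ± 0.63 SE, adjusted p = 0.189 with edgeR). With DESeq2 the adjusted p was 0.0177 for Cyp51 and 7.27e-04 for Hsd17b7, the lowest of 18 alternatives, over which it reached 0.771 and 0.523. Without day 0 library 3 the log2 change of Cyp51 was 0.76, and without day 0 library 2 it was 1.88. Without day 7 libraries 5 and 6 the log2 changes were 1.29 and 1.87.

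Along the mevalonate steps 0 of 7 genes passed, and 5 had a positive log2 change. Hmgcs1 (Entrez 208715), which encodes the cytosolic synthase that makes HMG-CoA, stood at 30.3 and 60.6 CPM on day 0 and at 45.9, 40.5, 52.0, 100.3 and 75.3 CPM on day 7 (log2 change 0.47 ± 0.37 SE, adjusted p = 0.731 with edgeR). Day 7 libraries 5 and 6 were highest, and libraries 1, 2 and 3 lay between the day 0 values, so that without libraries 5 and 6 the log2 change was 0.0066. Leaving out day 0 library 2 gave 0.055, and leaving out day 0 library 3 gave 1.06. Mvd (Entrez 192156), the decarboxylase that makes isopentenyl pyrophosphate, went the other way at 27.7 ± 15.5 and 12.0 ± 7.12 CPM on day 0 and day 7 (log2 change -1.20 ± 0.62 SE, adjusted p = 0.534 with edgeR). It overlapped between the groups because day 0 library 2, at 16.7 CPM, lay below day 7 library 3, at 22.5 CPM. Without day 0 library 3 its log2 change was -0.46. Idi1 (Entrez 319554), an isomerase, stood at 13.6 ± 8.37 and 13.9 ± 6.05 CPM, Fdps (Entrez 110196), which makes farnesyl pyrophosphate, at 23.5 ± 7.72 and 28.2 ± 13.7 CPM, and Acat2 (Entrez 110460), a cytosolic thiolase that joins acetyl-CoA units, at 14.9 ± 7.36 and 14.8 ± 7.02 CPM. These 3 genes had log2 changes between -0.012 and 0.26. The kinase genes Mvk (Entrez 17855) and Pmvk (Entrez 68603) were scarce and uneven: Mvk ranged from 0 to 12.3 CPM and Pmvk from 0 to 17.3 CPM over the 5 day 7 libraries, and their 95% intervals of the log2 change ran from -4.94 to 5.05 and from -2.39 to 5.78.

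From squalene to cholesterol 0 of 11 genes passed, with 6 positive and 5 negative log2 changes. Sqle (Entrez 20775), the squalene epoxidase, a rate-limiting enzyme of sterol synthesis, stood at 8.28 and 15.0 CPM on day 0 and at 11.9, 13.9, 21.6, 26.8 and 26.8 CPM on day 7 (log2 change 0.79 ± 0.60 SE, adjusted p = 0.708 with edgeR). Day 7 libraries 5 and 6 were again highest, and day 7 libraries 1 and 2 lay between the day 0 values. Without libraries 5 and 6 the log2 change was 0.42. Lss (Entrez 16987), the cyclase that closes the sterol rings one step later, stood at 31.1 and 38.5 CPM on day 0 and at 21.8, 13.5, 17.4, 25.4 and 12.4 CPM on day 7. Both day 0 libraries were above all 5 of day 7, yet the change was not called (log2 change -0.94 ± 0.46 SE, adjusted p = 0.496 with edgeR), and its lowest adjusted p over the 18 alternatives was 0.190. The next enzyme in order, Cyp51, had a change of the opposite sign, as given above.

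Dhcr7 (Entrez 13360), the reductase of the last step of one route to cholesterol, stood at 53.4 and 33.0 CPM on day 0 and at 32.9, 23.0, 19.3, 26.7 and 27.2 CPM on day 7 (log2 change -0.74 ± 0.39 SE, adjusted p = 0.549 with edgeR). Day 0 library 3 and day 7 library 1 were almost equal, so the separation of the groups is slight. Sc5d (Entrez 235293), a sterol desaturase, stood at 96.7 ± 7.24 and 71.4 ± 17.5 CPM on day 0 and day 7 (log2 change -0.44). Fdft1 (Entrez 14137), which makes squalene, stood at 47.1 ± 0.332 and 47.3 ± 13.9 CPM with a log2 change of 0.0053 and a 95% interval from -0.70 to 0.71. Msmo1 (Entrez 66234) and Nsdhl (Entrez 18194), which act in the same complex as Hsd17b7, and Ebp (Entrez 13595), a sterol isomerase, had log2 changes of -0.20, 0.14 and 0.39. Tm7sf2 (Entrez 73166), a sterol reductase, ranged from 0 to 4.70 CPM over all 7 libraries, too low to place.

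**Figure D3:**
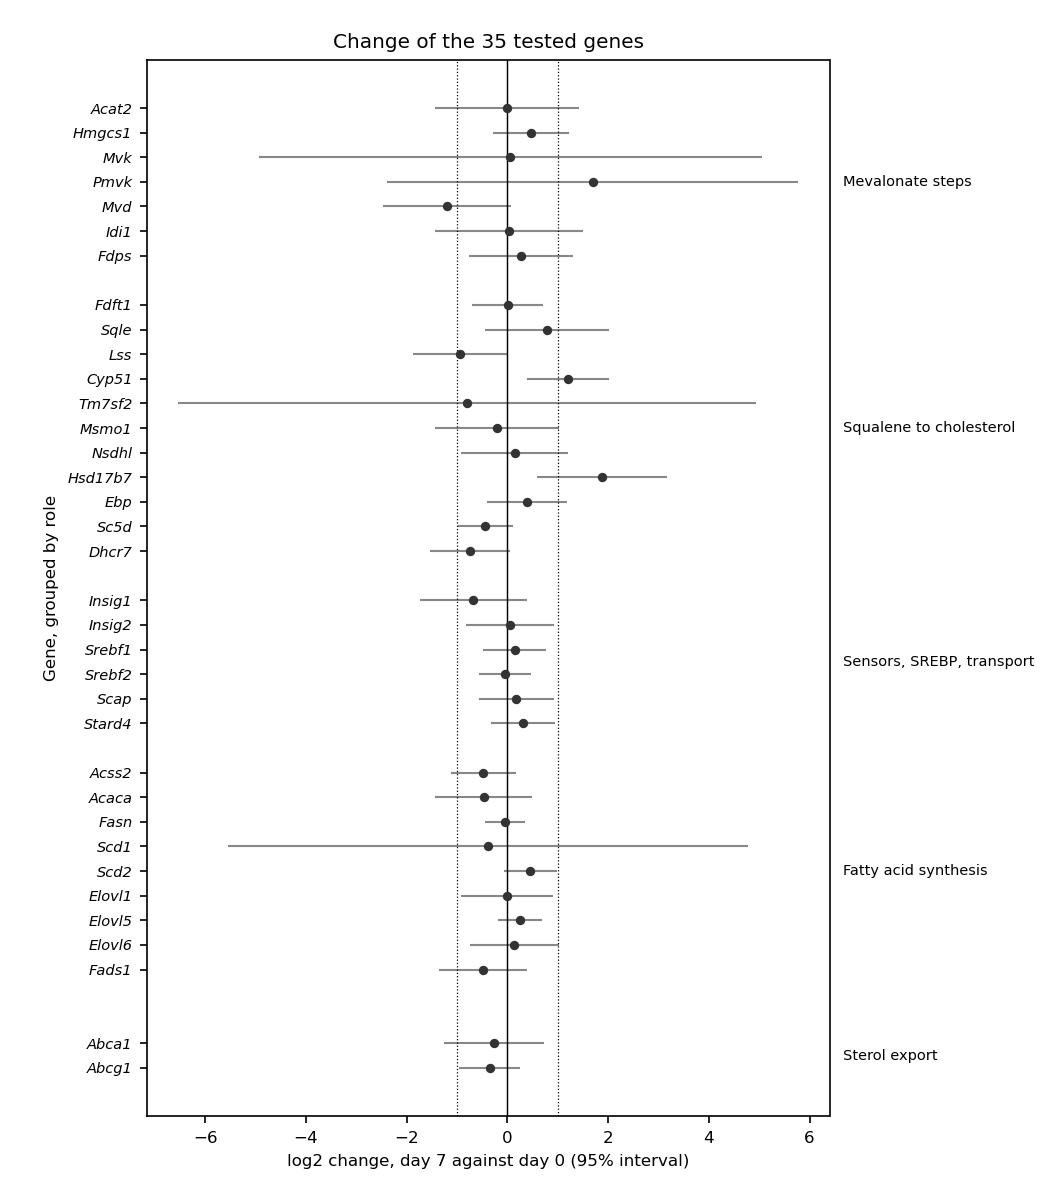
Log2 change of day 7 against day 0 (x axis) for the 35 tested genes, grouped by role, with 95% intervals and dotted lines at log2 changes of -1 and 1. The intervals of Cyp51 and Hsd17b7 alone leave out zero, both without passing the adjusted test, and 12 intervals lie wholly between the dotted lines.

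The regulators were the most tightly placed group, with 0 of 6 called and 5 of 6 intervals between -1 and 1. Srebf2 (Entrez 20788), which encodes SREBP2, the main factor of sterol genes, stood at 178 and 152 CPM on day 0 and at 98.5, 125, 183, 172 and 221 CPM on day 7 (log2 change -0.042 ± 0.24 SE, adjusted p = 0.9998 with edgeR). Srebf1 (Entrez 20787), which encodes the SREBP1 forms that act mainly on fatty acid genes, stood at 61.7 and 45.7 CPM on day 0 and at 70.5, 67.1, 65.3, 46.6 and 47.6 CPM on day 7 (log2 change 0.15 ± 0.30 SE, adjusted p = 0.998 with edgeR). Both factors overlapped between the days, with 95% intervals from -0.55 to 0.47 and from -0.48 to 0.77. Scap (Entrez 235623) stood at 77.7 and 53.5 CPM on day 0 and at 86.3, 64.8, 113, 73.6 and 32.1 CPM on day 7 (log2 change 0.18 ± 0.36 SE, adjusted p = 0.998 with edgeR), and day 7 libraries 3 and 6 held its highest and lowest values.

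Insig1 (Entrez 231070), the sterol-sensing anchor of SCAP that is itself an SREBP target, differed more between day 7 libraries than between the days. It stood at 85.3 and 44.9 CPM on day 0 and at 24.9, 20.8, 26.2, 47.2 and 85.1 CPM on day 7 (log2 change -0.67 ± 0.49 SE, adjusted p = 0.701 with edgeR). Day 7 libraries 1, 2 and 3 lay below both day 0 libraries, while libraries 5 and 6 stood between the day 0 values. Without libraries 5 and 6 the log2 change was -1.46 (edgeR adjusted p = 0.0656), the lowest adjusted p for Insig1 over the 18 alternatives, over which it reached 0.968. As libraries 5 and 6 were the highest of day 7, leaving them out could only lower the change. With 1 library left out in turn, the log2 change of Insig1 ran from -1.12 to -0.14. Insig2 (Entrez 72999), its paralogue, stood at 26.5 ± 7.01 and 27.4 ± 5.50 CPM (log2 change 0.046). Stard4 (Entrez 170459), a carrier of cholesterol between membranes, stood at 58.6 ± 15.3 and 73.0 ± 22.2 CPM (log2 change 0.32 ± 0.31 SE, adjusted p = 0.849 with edgeR), with day 7 libraries 5 and 6 at 94.4 and 98.4 CPM above the other 5 libraries.

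Genes of fatty acid synthesis did not pass the test in either direction. Of 9 tested genes 0 were called, and 3 had a positive log2 change. Fasn (Entrez 14104), the fatty acid synthase, stood at 149 and 145 CPM on day 0 and at 138, 167, 121, 134 and 148 CPM on day 7 (log2 change -0.052 ± 0.19 SE, adjusted p = 0.9998 with edgeR). Its 95% interval, from -0.45 to 0.34, was the narrowest of the 35 tested genes. Acaca (Entrez 107476), the carboxylase that makes malonyl-CoA, stood at 48.4 and 51.7 CPM on day 0 and at 37.4, 8.94, 44.6, 34.9 and 54.6 CPM on day 7 (log2 change -0.47 ± 0.46 SE, adjusted p = 0.851 with edgeR). A single library, day 7 library 2, lay far under the rest, and without it the log2 change was -0.22. Acss2 (Entrez 60525), which makes acetyl-CoA from acetate, stood at 62.9 and 70.7 CPM on day 0 and at 53.7, 58.3, 58.0, 35.4 and 34.2 CPM on day 7 (log2 change -0.48 ± 0.31 SE, adjusted p = 0.636 with edgeR). All day 7 libraries were below both day 0 libraries, with libraries 5 and 6 lowest, and without those 2 libraries the log2 change was -0.25.

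Among the desaturases and elongases, Scd2 (Entrez 20250), a stearoyl-CoA desaturase, stood at 66.5 and 118 CPM on day 0 and at 83.9, 135, 131, 162 and 119.6 CPM on day 7 (log2 change 0.45 ± 0.26 SE, adjusted p = 0.602 with edgeR). Day 7 library 1 lay between the day 0 values and the other 4 day 7 libraries lay above both of them. Scd1 (Entrez 20249), its close paralogue, stood at 6.82 and 0.0714 CPM on day 0 and at 0.0370, 3.02, 4.53, 1.98 and 3.62 CPM on day 7 (log2 change -0.39 ± 2.50 SE, adjusted p = 0.9998 with edgeR). It was near 0 in 1 library of each day, and how reads shared by the paralogues were counted is not stated. Elovl5 (Entrez 68801), an elongase of polyunsaturated fatty acids, stood at 129 ± 5.92 and 153 ± 33.7 CPM (log2 change 0.25 ± 0.21 SE, adjusted p = 0.785 with edgeR), and Elovl1 (Entrez 54325) and Elovl6 (Entrez 170439), elongases of saturated fatty acids, had log2 changes of -0.00031 and 0.14. Fads1 (Entrez 76267), a desaturase of polyunsaturated fatty acids, had a log2 change of -0.48. Fads2 (Entrez 56473), the companion desaturase, was not tested: its 70 counts all fell in day 7 library 3 (2.99 CPM), and, if each count stands for 1 fragment, the 0 counts over the day 0 group allow up to 0.0569 CPM (3 counts, counting error only).

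The sterol exporters, both LXR targets, gave no call. Abca1 (Entrez 11303), which moves cholesterol to lipid-poor apolipoprotein, stood at 29.1 and 23.6 CPM on day 0 and at 22.4, 36.3, 18.3, 12.1 and 20.9 CPM on day 7 (log2 change -0.26 ± 0.48 SE, adjusted p = 0.989 with edgeR). Abcg1 (Entrez 11307), which passes cholesterol to lipoprotein particles, stood at 109 and 98.2 CPM on day 0 and at 125, 51.3, 103, 62.1 and 64.8 CPM on day 7 (log2 change -0.35 ± 0.29 SE, adjusted p = 0.775 with edgeR). Both genes overlapped between the days, and for each the highest value was in a day 7 library (library 2 for Abca1 and library 1 for Abcg1). Both transporters are also abundant in macrophages, whose markers summed highest in day 7 libraries 5 and 6. Abca1 was lowest in day 7 library 5 and Abcg1 in day 7 library 2, and the part of macrophage RNA in these levels was not tested.

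**Figure D4:**
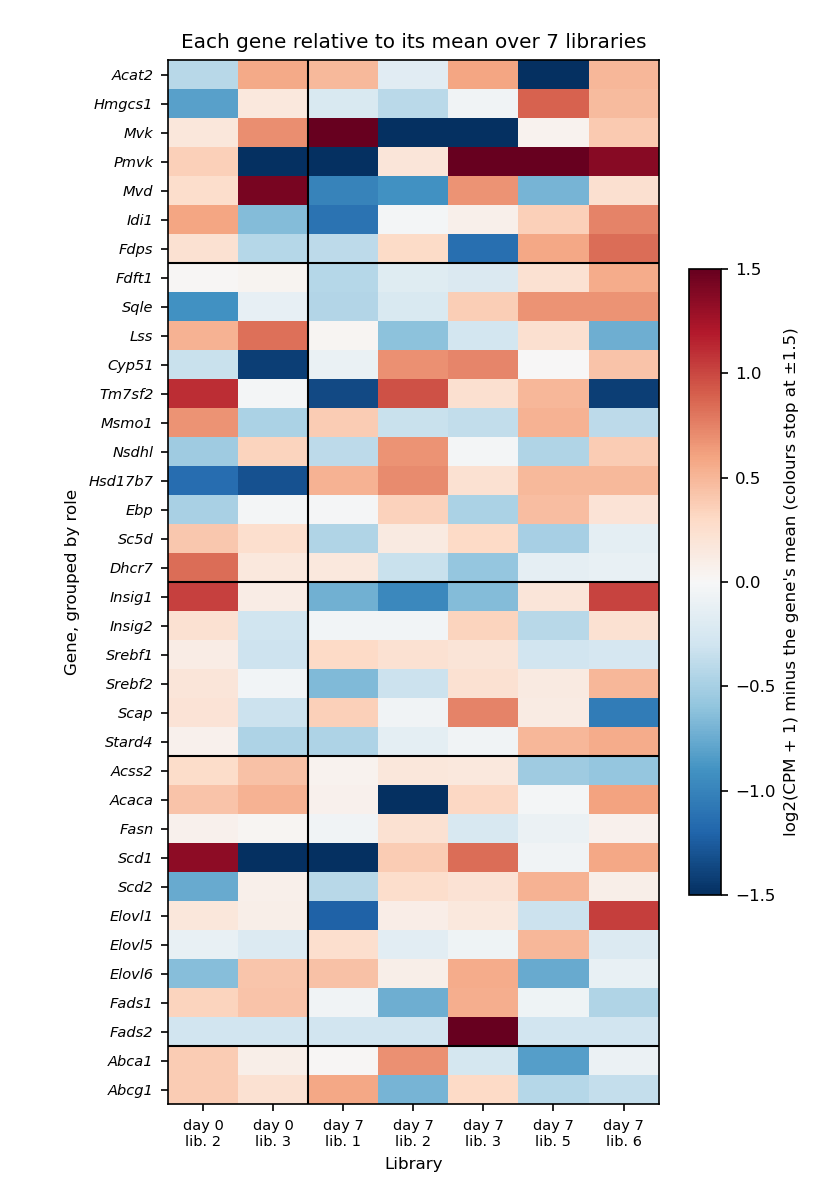
Each gene's log2(CPM + 1) minus its mean over the 7 libraries (colour), with genes in rows by role and libraries in columns. Hmgcs1, Idi1, Fdps, Fdft1, Sqle, Insig1 and Stard4 are redder in day 7 libraries 5 and 6 than in day 7 libraries 1, 2 and 3.

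Within day 7, libraries 5 and 6 both lay above libraries 1, 2 and 3 for 7 of the 35 tested genes, against 14.5% of all tested genes, and both lay below for 3, against 12.8%. The 7 were Hmgcs1, Idi1, Fdps, Fdft1, Sqle, Insig1 and Stard4, all of the sterol side, and the 3 were Srebf1, Acss2 and Elovl6. Genes of fatty acid synthesis were only 9 of the 35, and both counts are near the shares among all genes. No test was made of this split, since libraries 5 and 6 were singled out from the data and not by a label. Without them the log2 change against day 0 was -0.41 for Idi1, -0.26 for Fdps, -0.33 for Fdft1, -0.046 for Stard4, 0.32 for Srebf1 and 0.39 for Elovl6. Since these genes were picked by their levels in libraries 5 and 6, the direction of that shift was set by the choice. Summed over the 7 mevalonate genes, the level was 184 and 195 CPM in these libraries. It was 107, 107 and 136 CPM in the other day 7 libraries and 114 and 149 CPM on day 0. Much of that sum was Hmgcs1. Without it the other 6 genes summed to 83.6 and 119 CPM in libraries 5 and 6, to 61.4, 66.8 and 84.3 CPM in libraries 1, 2 and 3 and to 84.0 and 88.8 CPM on day 0, so that library 6 alone stood above the rest. For the 11 genes from squalene to cholesterol the sums were 339 and 360.3 CPM in libraries 5 and 6 and 287, 361 and 337 CPM in libraries 1, 2 and 3, which overlap. Libraries 5 and 6 were also those with the CD8 T cell and macrophage transcripts given above. The 12 cell cycle genes summed to 2390 and 2587 CPM there and to 2044, 1909 and 2127 CPM in libraries 1, 2 and 3, while the sum of the hepatocyte markers was lower there. The part of these cell types and of cell cycle transcripts in the 7 genes was not tested.

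The promoters of 4 sterol genes are shown because these genes carry the patterns above: Hmgcs1 and Insig1 for the difference between day 7 libraries, and Cyp51 and Hsd17b7 for the higher values on day 7. Each is the 300-base RefSeq window from 250 bases before to 50 bases after the annotated start (GRCm38.p6; the build behind the counts is not given in the sources used here), written 5′ to 3′ on the gene's strand. Capitals mark matches on either strand to the core of the sterol regulatory element TCACNCCAC, which SREBPs bind, to CCAAT, bound by NF-Y, and to GGGCGG, bound by Sp1; no matches overlap in these windows.
Hmgcs1, chr13:119690101-119690400, plus strand: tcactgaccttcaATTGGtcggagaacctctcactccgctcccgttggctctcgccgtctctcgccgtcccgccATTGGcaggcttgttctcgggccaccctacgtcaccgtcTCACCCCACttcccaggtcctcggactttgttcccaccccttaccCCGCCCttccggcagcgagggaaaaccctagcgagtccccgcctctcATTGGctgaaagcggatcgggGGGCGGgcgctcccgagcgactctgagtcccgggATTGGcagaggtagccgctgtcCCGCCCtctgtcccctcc
Insig1, chr5:28071162-28071461, plus strand: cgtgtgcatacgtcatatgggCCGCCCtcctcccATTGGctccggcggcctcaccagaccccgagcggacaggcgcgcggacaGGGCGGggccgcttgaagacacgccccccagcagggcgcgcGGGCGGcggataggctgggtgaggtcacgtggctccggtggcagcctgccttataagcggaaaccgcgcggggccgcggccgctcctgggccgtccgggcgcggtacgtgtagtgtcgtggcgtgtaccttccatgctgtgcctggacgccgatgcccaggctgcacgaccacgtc
Cyp51, chr5:4104648-4104947, minus strand: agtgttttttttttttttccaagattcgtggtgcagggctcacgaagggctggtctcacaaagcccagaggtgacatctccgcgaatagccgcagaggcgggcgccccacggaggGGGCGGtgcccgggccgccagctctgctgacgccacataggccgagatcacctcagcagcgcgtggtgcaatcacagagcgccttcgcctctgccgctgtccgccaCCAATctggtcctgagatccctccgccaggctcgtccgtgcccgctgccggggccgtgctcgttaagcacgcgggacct
Hsd17b7, chr1:169969156-169969455, minus strand: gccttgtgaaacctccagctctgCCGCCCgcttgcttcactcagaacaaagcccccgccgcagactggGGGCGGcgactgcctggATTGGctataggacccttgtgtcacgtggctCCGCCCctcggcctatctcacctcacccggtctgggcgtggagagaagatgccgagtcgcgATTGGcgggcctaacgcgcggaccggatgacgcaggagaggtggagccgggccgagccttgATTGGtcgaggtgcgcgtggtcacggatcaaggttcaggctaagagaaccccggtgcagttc

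The Hmgcs1 window held 1 sterol element core, TCACCCCAC, 137 to 129 bases before the start, with 4 CCAAT boxes and 3 Sp1 boxes around it. The windows of Insig1, Cyp51 and Hsd17b7 held 1, 1 and 3 CCAAT boxes and 3, 1 and 3 Sp1 boxes. The sterol element core was not found in these 3 windows, which says only that these letters are not there. RefSeq windows were matched by Entrez number for 28 of the 36 genes, and a gene counts as holding a motif if any of its windows does. CCAAT was in 22 of the 28 genes (78.6%), against 42.9% of the 10295 tested genes with a window and 41.1% of the 27025 genes in the promoter table. GGGCGG was in 23 of 28 (82.1%), against 65.1% and 38.2%, and TCACNCCAC in 1 of 28 (3.57%), against 1.38% and 1.44%. These shares describe the sequences.

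Lists of neighbouring pathways held 1 called gene in all, and with 1.54% of all genes called, counts of 0 in lists this short say little about them. None of the tested genes was called in either direction among 9 of SREBP processing and sterol-regulated degradation, 9 LXR receptors and other LXR targets, 11 of sterol uptake, storage and transport, 14 of the isoprenoid branch and prenylation, 19 of other fatty acid synthesis and elongation, and 17 of fatty acid oxidation. At an unadjusted p under 0.05 with edgeR these lists had 1, 1, 0, 1, 2 and 2 genes higher and 0, 1, 1, 0, 0 and 0 lower, against 6.29% and 3.78% of all genes. Their median log2 changes lay between -0.12 and 0.18. In the list of fatty acid uptake and triglyceride storage 1 of 14 tested genes rose and none fell, with a median of 0.14. It was Plin3 (Entrez 66905), which encodes a coat protein of lipid droplets that also takes part in vesicle transport, at 4.03 and 2.32 CPM on day 0 and at 17.9, 17.9, 30.7, 18.0 and 29.4 CPM on day 7. Every day 7 library was above both day 0 libraries (log2 change 2.84 ± 0.68 SE, adjusted p = 0.0296 with edgeR). The call was lost with limma-voom, with a replicate block on the column digit and when either day 0 library, or any one of day 7 libraries 3, 5 and 6, was left out, with adjusted p from 0.0375 to 0.219 over the libraries left out in turn. Without both day 7 libraries 5 and 6 the adjusted p from edgeR was 0.0769. Over the 18 alternatives its adjusted p ran from 1.33e-06 to 0.456.

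How large a change these libraries could have missed differed between the genes. For 12 of the 35 tested genes the 95% interval of the log2 change lay between -1 and 1, as it did for 32.8% of all tested genes: Fdft1, Sc5d, Insig2, Srebf1, Srebf2, Scap, Stard4, Fasn, Scd2, Elovl1, Elovl5 and Abcg1. For the other 23 a change by a factor of 2 in at least one direction was not left out by the interval. Mvk, Pmvk, Tm7sf2 and Scd1 had intervals that reached beyond -2 and 4, so that no change of useful size was detectable for them at this depth and spread. The median coefficient of variation over the 5 day 7 libraries was 34.8%, with 12.1% for Fasn and 12.2% for Hsd17b7 at the low end.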

How the data were processed

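The authors deposited raw counts per gene for 7 libraries in 1 table. Per the submitters' processing notes, the tools were CASAVA (version 1.8), HISAT2 (version 2.0.5) and featureCounts (version 1.5.0-p3). Roles, settings, genome build, annotation and strand use are not stated there. Of counts from 2 to 200, 72.4% to 78.1% per library were even, so small counts may stand for fewer fragments. Column names gave the day. edgeR 4.0.16 in R 4.3.3 was run on all genes that passed filterByExpr, with TMM scaling (0.988 to 1.01) and robust quasi-likelihood tests of day 7 against day 0. P-values were Benjamini-Hochberg adjusted over the 12929 genes tested, and calls were made below 0.05. The SE of a log2 change is its size over the square root of F, and 95% intervals use the degrees of freedom of the fit. Group levels are mean ± SD of CPM (n = 2 and 5). Alternatives used DESeq2 1.42.0, limma 3.58.1, other scalings and filters, halved counts, a replicate block and fewer libraries. In a simulation of 12278 genes, 72% of changes by a factor of 4 and 27% by a factor of 2 were recovered, and 8 of 107 calls were false. Named in full were called genes and 12 listed members (Hmgcs1, Sqle, Insig1, Srebf1, Srebf2, Scap, Fasn, Acaca, Scd1, Scd2, Abca1 and Abcg1), with up to 4 called genes per direction of other lists. Cyp51, Hsd17b7, Lss, Dhcr7 and Acss2 were added after their values were seen. Members and lists were chosen with earlier results of these data known.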

Additional observations from a re-analysis of the deposited data

Results flagged for a closer look

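In 2 of the 36 genes 1 day 7 library stood far from the other 4 by Dixon's test at the 95% level. Chance passes this test in about 1 in 20 groups of normally distributed levels. The share of all tested genes that pass it is not given, so the count of 2 cannot be judged against it. Mvk, the mevalonate kinase, was at 12.3 CPM in day 7 library 1, where the next highest day 7 library was at 3.26 CPM. Fads2, a fatty acid desaturase, was at 2.99 CPM in day 7 library 3 and had no counts in the other 6 libraries. A gene with counts in only 1 day 7 library passes this test by construction, so nothing is concluded from it for Fads2.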

How the results depend on the processing

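No label says that the last digit of a column marks a shared animal or batch, and the digits 2 and 3 occur on both days. Libraries with the same digit did not deviate together from their group means (Pearson's r across genes of -0.0049 for digit 2 and -0.0013 for digit 3). With that digit as a replicate block, added after the data were seen and leaving 1 residual degree of freedom, 0 of the 36 genes were called, and over all genes 40 were higher and 42 lower; the log2 change was 0.15 for Acat2, -7.28 for Mvk, -0.35 for Fdps, -0.24 for Fdft1, 0.11 for Tm7sf2, 2.24 for Scd1 and 0.0025 for Elovl1. The count of 0 genes called higher and 0 lower held under 17 of the 18 alternatives, the exception being DESeq2 with 2 higher. Over all genes, where 138 were higher and 61 lower, the counts were 249 and 126 without a filter, 634 and 192 with DESeq2, 53 and 94 with limma-voom, and 67 and 114 with limma-voom with sample weights. Without day 7 libraries 5 and 6, 107 were lower. With 1 library left out, 87 to 153 were higher (87 without day 7 library 5) and 30 to 59 lower (30, 38 and 40 without day 0 library 2, day 0 library 3 and day 7 library 5). The sign of the log2 change held under every alternative for 18 of 35 genes, and for 17, none of them called under any alternative, it changed under at least 1, and the cause was not tested. With library totals alone it was 0.012 for Acat2 and 0.025 for Elovl1. Without day 7 libraries 5 and 6 it was 0.17 for Acat2, -0.41 for Idi1, -0.26 for Fdps, -0.33 for Fdft1 and -0.046 for Stard4. For Idi1, Fdps, Fdft1 and Stard4, highest in these libraries within day 7, leaving them out could only lower the log2 change. With limma-voom it was -2.36 for Mvk, -0.057 for Fdft1 and 0.86 for Scd1. With limma-voom with sample weights it was -2.76 for Mvk, -0.066 for Fdft1 and 0.94 for Scd1. With upper-quartile scaling it was -0.0014 for Fdft1. With mean of at least 5 CPM it was -0.0064 for Fdft1. With RLE scaling it was 0.000024 for Elovl1. With no filter on low counts it was 0.0060 for Elovl1. With DESeq2 it was 0.00011 for Elovl1. With 1 library left out, the log2 change ran from -0.44 to 0.62 for Acat2, -1.29 to 0.44 for Mvk, -0.48 to 0.85 for Idi1, -0.031 to 0.65 for Fdps, -0.16 to 0.10 for Fdft1, -1.37 to 0.17 for Tm7sf2, -0.68 to 0.53 for Msmo1, -0.24 to 0.68 for Nsdhl, -0.19 to 0.35 for Insig2, -0.047 to 0.38 for Srebf1, -0.18 to 0.090 for Srebf2, -0.061 to 0.47 for Scap, -0.12 to 0.00072 for Fasn, -1.36 to 5.12 for Scd1, -0.36 to 0.21 for Elovl1 and -0.30 to 0.80 for Elovl6. Among genes that kept their sign, leaving out 1 library moved the fold by over 1.5 times for Hmgcs1, Mvd and Cyp51, as given above, and for Pmvk (0.71 without day 0 library 3 and 8.03 without day 0 library 2). Leaving out a day 0 library leaves 1, which is then assumed to vary like the day 7 libraries.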

Other observations

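The pathway terms that came with the deposited table gave lists that overlap the 36 genes in part. The Gene Ontology term cholesterol biosynthetic process held 26 tested genes, of which 0 were called with edgeR and 2 were higher at an unadjusted p under 0.05, with 19 positive changes and a median log2 change of 0.14. Of these 26 genes 17 are among the 36, and the other 9 had 8 positive changes, none at an unadjusted p under 0.05, and a median of 0.45. Among those 9 genes 3 had no counts in at least 1 day 7 library, and the log2 changes ran from -0.27 to 9.02. Of all tested genes 53.1% had a positive change, with a median of 0.041, and 6.29% were higher at an unadjusted p under 0.05 with edgeR. The term fatty acid biosynthetic process held 40 tested genes, of which 0 were called and 2 were higher at an unadjusted p under 0.05, with a median of 0.025; 8 of these are among the 36. The Reactome terms Cholesterol biosynthesis and Fatty acid metabolism, chosen after the data were seen, held 26 and 109 tested genes, 20 and 7 of them among the 36, with 0 called and medians of 0.042 and 0.049. Of 461 tested genes under the broad term lipid metabolic process, 1 was called. It was Inpp4b, a phosphoinositide phosphatase, named after its value was seen, at 1088 ± 143 CPM on day 0 and 757 ± 94.1 CPM on day 7. Its log2 change was -0.52 (edgeR adjusted p = 0.0238), with all 5 day 7 libraries below both day 0 libraries.

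Scarce genes alternated between near 0 and several CPM. Mvk, Pmvk, Tm7sf2 and Scd1 averaged from 1 to 10 CPM over the 7 libraries, and each had at least 1 library with 3 counts or fewer. The same held for 2855 of all 3524 tested genes in that range of levels (81.0%).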
